A study of Homo sapiens with 40 samples.

Results

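Nuclear genes for respiratory complex I and its NDUFAF assembly factors were followed in bulk RNA-seq of HEK293T cells, a human embryonic kidney line. Members were the gene symbols beginning NDUFA, NDUFAB, NDUFB, NDUFC, NDUFS or NDUFV and ending in a number (subunits), or NDUFAF and a number (assembly factors), with a mean of at least 10 counts over the 40 libraries. The rule gave 46 of the 28278 symbols in the table, 38 subunits and 8 assembly factors, and all 46 were among the 16739 genes that passed the filter on low counts. The 46 are all the symbols of that form in the table. The lowest of them were NDUFA3, with a mean of 20.8 counts, and NDUFA6, with a mean of 95.6 counts. Another 6 symbols that begin with NDUF, antisense or readthrough genes, a pseudogene and NDUFA4L2, did not match and are not members.

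The 5 lines were knockout cells for SLC25A12, a mitochondrial aspartate and glutamate carrier, with SLC25A12-F137S and dMTS-DELE1 (dMTS-DELE1 cells), knockout cells with SLC25A12-F137S (F137S cells), libraries labelled KO plus SLC25A12-WT, knockout cells with vector (KO vector), and wild-type cells with vector (WT vector). Each line received antimycin A at 40 nM, which blocks respiratory complex III, or vehicle, for 6 hours, with 4 libraries per line and treatment. The labels call the libraries biological replicates without saying whether they were separate cultures, so p-values measure the spread between these libraries, which may be technical. The sources used here do not say whether the knockout was a clone or a pool, nor which promoter drove the cDNAs.

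Complex I passes electrons from NADH to ubiquinone and pumps protons across the inner mitochondrial membrane. Its core subunits in the matrix arm carry the flavin and the iron-sulfur clusters, the accessory subunits surround the core in both arms, and the remaining core subunits of the membrane arm are encoded in mitochondrial DNA and were not analysed here. Assembly factors bind or modify subunits while the complex is built and are absent from the finished enzyme. By role the members were 7 nuclear core subunits, 10 accessory subunits of the matrix arm, 9 of the proximal membrane arm, 11 of the distal membrane arm, NDUFA4, which was named as a complex I subunit and is now placed in complex IV, and the 8 assembly factors.

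The libraries held between 30.7 and 32.0 times 1e6 counts, and the members together took 0.304% to 0.382% of the counts of a library. SLC25A12 in vehicle stood at 3693 to 3745 CPM (counts per 1e6 counts) in dMTS-DELE1 cells, 1826 to 1867 in F137S cells, 38.4 to 39.2 in libraries labelled KO plus SLC25A12-WT, 2.96 to 3.43 in KO-vector cells and 36.1 to 39.9 in WT-vector cells. The libraries labelled KO plus SLC25A12-WT thus lay at the wild-type level and did not show an added cDNA, which goes against their label. DELE1 stood at 5272 to 5464 CPM in dMTS-DELE1 cells and 43.1 to 47.9 CPM in F137S cells in vehicle. Over all libraries the epithelial keratin KRT8 stood at 78.1 to 176 CPM, vimentin (VIM) at 349 to 491 CPM, the kidney lineage factor PAX2 at 1.81 to 3.91 CPM and LHX1, another such factor, at 0.129 to 0.975 CPM. The leukocyte marker PTPRC (at most 0.157 CPM), the endothelial marker CDH5 (at most 0.1299 CPM) and the liver marker ALB (at most 1.05 CPM) were near 0, while CD68, listed as a leukocyte marker, stood at 0.858 to 3.17 CPM and the collagen gene COL1A1, listed for fibroblasts, at 14.8 to 20.9 CPM.

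NDUFA3 and NDUFA6 were too erratic between libraries to be read like the rest. The number of NDUFA3 counts in a library was mostly between 1 and 23, but F137S cells in vehicle held 143 in replicate 3 beside 23, 8 and 14, and KO-vector cells in antimycin held 200 in replicate 1 beside 11, 15 and 6. NDUFA6 lay between 42 and 122 counts, except for 1031 in replicate 2 of dMTS-DELE1 cells in antimycin, beside 120, 81 and 76. Single libraries thus stood far above the other 3 of their group. Within groups the log2 CPM of NDUFA3 had a pooled SD of 1.17 and that of NDUFA6 one of 0.64, whereas no other member exceeded 0.13. Per kilobase of annotated exon, NDUFA3 had a mean of 0.27 CPM and NDUFA6 one of 2.14 CPM, against 153 CPM for NDUFB10 and 201 CPM for NDUFS5, the highest. The 4 calls made below for these 2 genes were each lost without 1 library. NDUFA6 was called higher in antimycin than in vehicle in dMTS-DELE1 cells (log2 difference 2.21, edgeR adjusted p = 0.00104), and stood at 0.37 (edgeR adjusted p = 0.215) without antimycin replicate 2. Without that library its log2 difference between dMTS-DELE1 and F137S cells in antimycin was 0.21 (edgeR adjusted p = 0.446), and 2.04 with it. The NDUFA3 log2 difference between dMTS-DELE1 and F137S cells in vehicle was -2.63 (edgeR adjusted p = 0.0385), and -0.97 (edgeR adjusted p = 0.538) without F137S replicate 3. The NDUFA3 log2 difference between KO-vector and WT-vector cells in antimycin was 2.69 (edgeR adjusted p = 0.0239), and 0.25 (edgeR adjusted p = 0.873) without KO-vector replicate 1. Counts of members below include both genes unless stated.

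**Figure D1:**
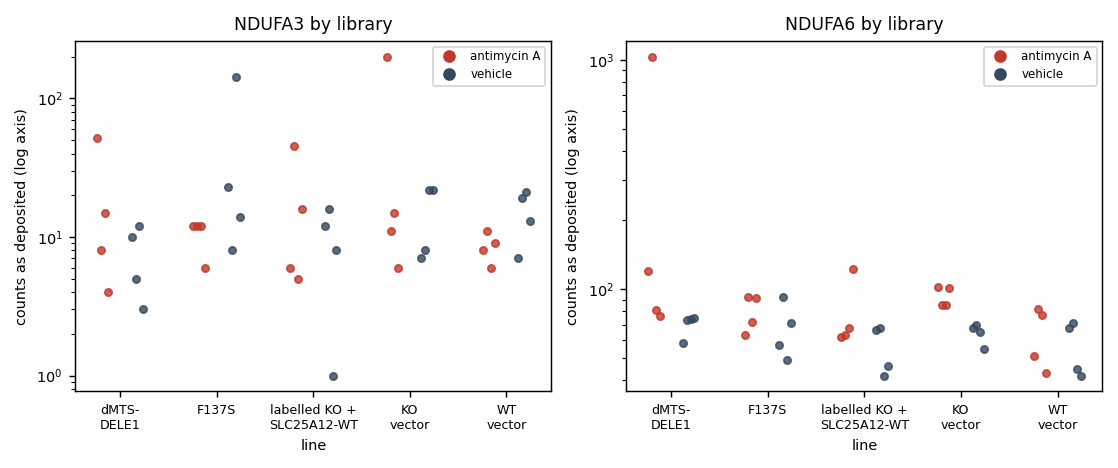
Counts of NDUFA3 and NDUFA6 in every library (points, log axis), by line and treatment, with antimycin left of vehicle. Most NDUFA3 points lie between 1 and 23 and most NDUFA6 points between 42 and 122, with the single libraries at 143, 200 and 1031 far above.

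Antimycin left most complex I transcripts within a narrow range, and 2 assembly factors, NDUFAF5 and NDUFAF4, fell in every line. Here rose and fell mean an adjusted p < 0.05 in edgeR's quasi-likelihood test, with Benjamini-Hochberg adjustment over all tested genes, and log2 fold changes are antimycin over vehicle ± SE, with n = 4 libraries per group. In dMTS-DELE1 cells 7 members rose and 3 fell, where 34.9% of all tested genes were called (17.6% rose and 17.3% fell). In F137S cells 19 rose and 3 fell, where 51.2% of all tested genes were called (26.3% rose and 24.9% fell). In libraries labelled KO plus SLC25A12-WT 16 rose and 6 fell, beside 52.3% of all tested genes (25.9% rose and 26.4% fell). In KO-vector cells 20 rose and 3 fell, beside 51.0% (26.4% rose and 24.7% fell), and in WT-vector cells 8 rose and 9 fell, beside 51.9% (25.5% rose and 26.4% fell). The number called in dMTS-DELE1 cells was 5 without vehicle replicate 3 or without antimycin replicate 1 and 4 without antimycin replicate 2, and that in the labelled libraries 12 without vehicle replicate 1. With DESeq2 size factors the WT-vector split was 8 higher and 6 lower, and in the fit without the labelled libraries it was 8 higher and 5 lower. The members called were a smaller share than that of all tested genes in dMTS-DELE1 cells (10 of 46) and WT-vector cells (17 of 46), and near it in F137S cells (22 of 46), the labelled libraries (22 of 46) and KO-vector cells (23 of 46, or 28 of 46 with the compared groups alone). The median log2 fold change of the members was 0.05 in dMTS-DELE1 cells, 0.08 in F137S cells, 0.06 in the labelled libraries, 0.10 in KO-vector cells and 0.02 in WT-vector cells, where the medians of all tested genes ran from 0.0097 to 0.02. Of the members 34 have protein-coding transcripts with a median length of at most 1000 bases (GENCODE v29). Tested genes that short had medians from 0.030 in dMTS-DELE1 cells to 0.049 in KO-vector cells, and longer ones from 0.0032 to 0.012. The part of transcript length in the members' medians was not tested. In bulk RNA a smaller share of cells with a transcript and less of it per cell cannot be told apart. Of the 46, 24 rose in at least 1 line, 11 fell in at least 1 line, 11 were called in none, which does not show that they were unchanged, and 0 rose in some lines and fell in others.

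**Figure D2:**
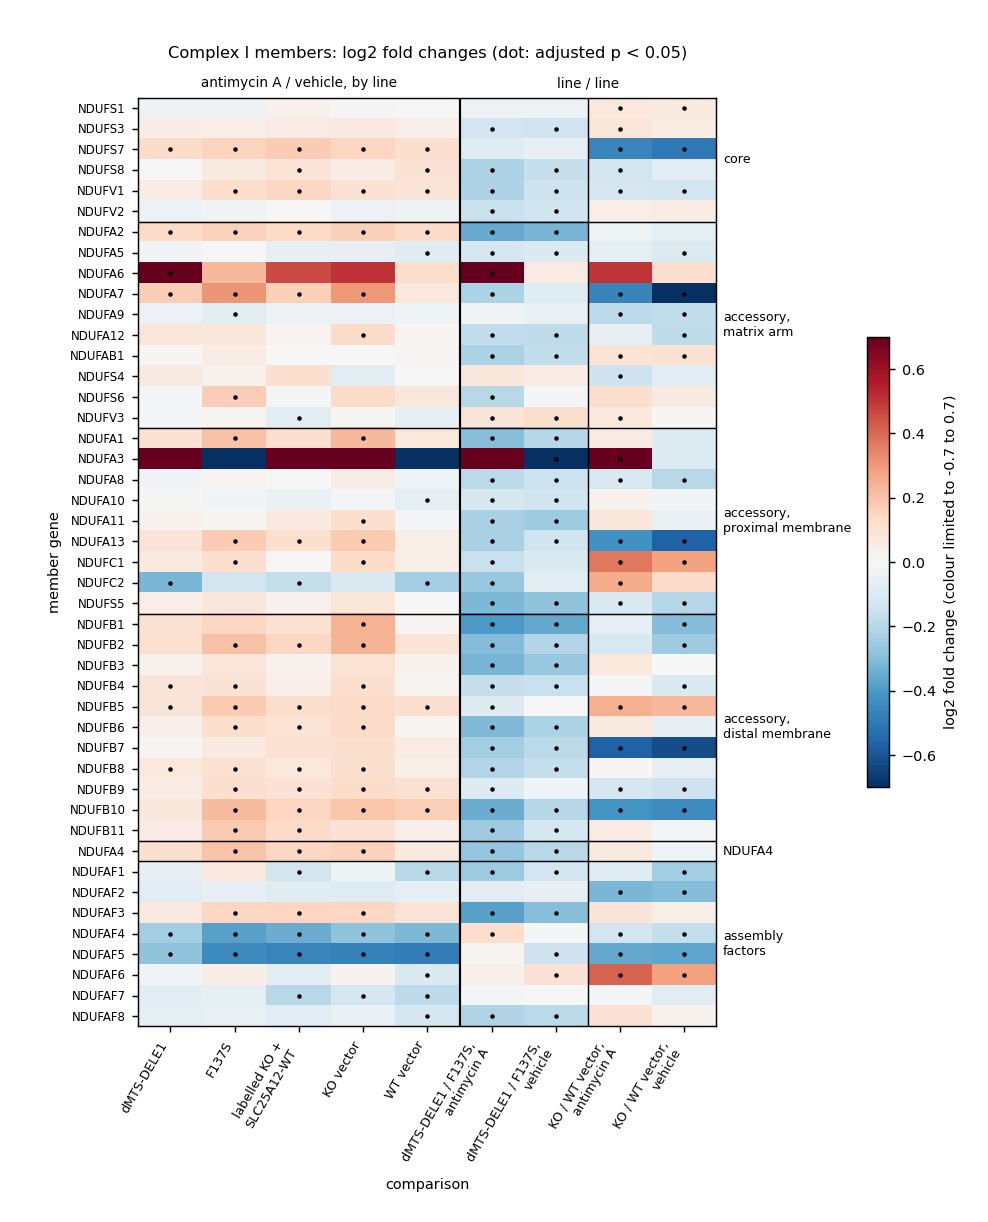
Log2 fold change of the members reported by name (rows, by role, colour limited to -0.7 to 0.7), antimycin over vehicle in the 5 lines (left columns), then dMTS-DELE1 over F137S and KO vector over WT vector in each treatment (right columns), with dots where the edgeR adjusted p was below 0.05. NDUFAF5 and NDUFAF4 show falls in all 5 left columns, most subunits there lie close to 0 or slightly above it, and most members are lower in the dMTS-DELE1 columns. NDUFA3 and NDUFA6 carry the values of single libraries described above.

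NDUFAF5 and NDUFAF4 were the members that fell in all 5 lines. Here and below the labelled libraries are counted as a line of their own. No member was called between them and WT-vector cells, so they may not be a line apart from WT vector. NDUFAF5 is an enzyme that hydroxylates an arginine of the core subunit NDUFS7, and NDUFAF4 acts with NDUFAF3 early in the building of the arm that joins matrix and membrane. Over all tested genes 13.1% fell in all 5 lines and 11.3% rose in all 5, so a fall shared by the lines was common. Tested genes within 1 Mb were also low in WT-vector cells. The 5 around NDUFAF5 had a median log2 fold change of -0.43, with 2 lower and 1 higher. The 4 around NDUFAF4 had a median of -0.34, with 3 lower and 0 higher. Whether the regions around NDUFAF5 and NDUFAF4 fell as a whole was not tested. The sequences around the starts of both genes are shown, since their transcripts fell in every line and the promoters of many respiratory genes hold sites of the transcription factor NRF1. Each runs from 100 bases before to 6 after the annotated start (RefSeq, GRCh38.p14), 5′ to 3′ on the gene's strand, with capitals for the NRF1 motif GCGCATGCG on either strand.
NDUFAF5: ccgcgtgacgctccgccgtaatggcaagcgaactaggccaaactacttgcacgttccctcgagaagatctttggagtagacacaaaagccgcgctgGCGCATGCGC
NDUFAF4: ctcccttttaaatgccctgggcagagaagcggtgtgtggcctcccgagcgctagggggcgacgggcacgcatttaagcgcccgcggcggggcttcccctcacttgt
The NDUFAF5 stretch lies at chr20:13784928-13785033 on the plus strand and holds the motif on both strands, overlapping, at its end. The NDUFAF4 stretch lies at chr6:96897886-96897991 on the minus strand and holds no match. Windows of 300 bases, 250 before to 50 after the start, were given for 39 of the 46 members. The NRF1 motif GCGCATGCG, read on both strands, was in 6 of these 39 members (15.4%) and in 2.34% of all 27305 symbols with a window. The motif AAGATGGCG of the factor YY1 was in 7 members (17.9%) and in 2.14% of symbols, the ETS-family motif CCGGAAGT in 2 members (5.13%) and in 4.95% of symbols, and TGATGCAA, a form of the element bound by ATF4, in 0 members and in 1.08% of symbols. A match is a match of letters only.

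NDUFAF5 stood at 17.0, 17.5, 19.8 and 19.9 CPM in antimycin and 23.5, 22.6, 23.8 and 20.3 CPM in vehicle in dMTS-DELE1 cells, and at 18.7, 17.8, 18.4 and 18.2 CPM in antimycin and 25.4, 24.4, 24.2 and 25.8 CPM in vehicle in F137S cells. In libraries labelled KO plus SLC25A12-WT it stood at 23.7, 23.7, 23.1 and 22.2 CPM in antimycin and 33.4, 30.6, 30.4 and 33.4 CPM in vehicle. In each of these lines every antimycin library lay below every vehicle library, by the least in dMTS-DELE1 cells. KO-vector cells had 17.4, 17.3, 18.1 and 19.8 CPM of NDUFAF5 in antimycin and 25.5, 25.02, 24.7 and 25.5 CPM in vehicle. WT-vector cells had 21.95, 24.7, 24.9 and 21.5 CPM in antimycin and 31.3, 32.4, 33.9 and 32.5 CPM in vehicle, and neither vector line showed overlap between treatments. The log2 fold changes were -0.28 ± 0.057 in dMTS-DELE1 cells (edgeR adjusted p = 3.44e-05), -0.45 ± 0.056 in F137S cells (1.47e-10), -0.46 ± 0.055 in the labelled libraries (1.77e-11), -0.47 ± 0.056 in KO-vector cells (2.44e-11) and -0.48 ± 0.055 in WT-vector cells (3.71e-12). These are falls of 1.22-fold in dMTS-DELE1 cells and of 1.36-fold to 1.40-fold in the other lines.

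NDUFAF4 had 36.4, 36.8, 37.2 and 38.3 CPM in antimycin and 44.9, 44.5, 40.2 and 46.6 CPM in vehicle in dMTS-DELE1 cells, and 33.9, 35.7, 30.8 and 35.8 CPM in antimycin and 45.6, 43.4, 45.7 and 42.8 CPM in vehicle in F137S cells. Both lines showed a gap between the treatments. The labelled libraries had 38.2, 37.2, 36.3 and 38.5 CPM in antimycin and 49.6, 46.3, 48.6 and 46.7 CPM in vehicle, KO-vector cells 35.8, 34.2, 36.6 and 36.3 CPM in antimycin and 42.9, 43.2, 43.5 and 43.9 CPM in vehicle, and WT-vector cells 41.4, 37.7, 37.8 and 39.8 CPM in antimycin and 47.5, 50.9, 48.7 and 47.8 CPM in vehicle. No line had an antimycin library at or above a vehicle library. The NDUFAF4 log2 fold changes were -0.25 ± 0.043 in dMTS-DELE1 cells (edgeR adjusted p = 2.88e-06), -0.38 ± 0.043 in F137S cells (4.87e-12), -0.35 ± 0.043 in the labelled libraries (9.28e-11), -0.28 ± 0.043 in KO-vector cells (5.86e-08) and -0.31 ± 0.043 in WT-vector cells (1.79e-09).

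**Figure D3:**
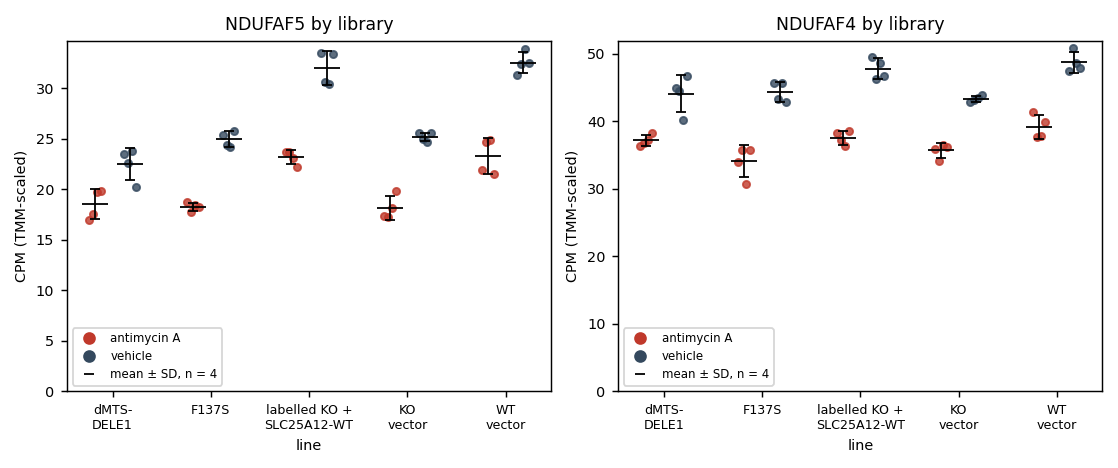
CPM of NDUFAF5 (left) and NDUFAF4 (right) in every library (points), with the group mean ± SD (n = 4) as bars, by line, with antimycin left of vehicle. Both genes show a gap between the treatments in all 5 lines.

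The other assembly factors moved less and in fewer lines. Among all 8, 2 fell and 0 rose in dMTS-DELE1 cells, 2 fell and 1 rose in F137S cells, 4 fell and 1 rose in the labelled libraries, 3 fell and 1 rose in KO-vector cells, and 6 fell and 0 rose in WT-vector cells. Over all tested genes 17.3%, 24.9%, 26.4%, 24.7% and 26.4% fell in these lines, so that the 2 of 8 in dMTS-DELE1 cells and in F137S cells lay near the share of all genes. The 6 that fell in WT-vector cells were NDUFAF5, NDUFAF4, NDUFAF1 (-0.20), which belongs to the complex that builds the membrane arm, NDUFAF7 (-0.18), a methyltransferase that acts on a core subunit, NDUFAF8 (-0.12), the partner of NDUFAF5, and NDUFAF6 (-0.10). NDUFAF6 and NDUFAF8 lost their calls there with DESeq2 size factors (edgeR adjusted p = 0.0533 and 0.063), in the fit without the labelled libraries (edgeR adjusted p = 0.0541 and 0.0753) and when any 1 of the 8 libraries was left out. In the labelled libraries NDUFAF1 lost its call without vehicle replicate 2 or 3 or antimycin replicate 2, 3 or 4 (edgeR adjusted p up to 0.176). In KO-vector cells NDUFAF7 lost its call without vehicle replicate 2 or 4 or antimycin replicate 2 or 3 (edgeR adjusted p up to 0.111). NDUFAF3 was the member that rose, by 0.15 in F137S cells, in the labelled libraries and in KO-vector cells. Its rise in F137S cells was not called without vehicle replicate 3 (edgeR adjusted p = 0.0617) or antimycin replicate 4 (edgeR adjusted p = 0.062), nor that in the labelled libraries without vehicle replicate 1 (edgeR adjusted p = 0.063). NDUFAF2, a late-acting relative of the subunit NDUFA12, was called in no line, with log2 fold changes between -0.086 and -0.056.

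The core subunits that were called rose by small amounts. In dMTS-DELE1 cells 1 of 7 rose, in F137S cells 3, in the labelled libraries 4, in KO-vector cells 3 and in WT-vector cells 4, and 0 fell in any line, where 17.6%, 26.3%, 25.9%, 26.4% and 25.5% of all tested genes rose. The 1 of 7 in dMTS-DELE1 cells was no larger a share than over all tested genes. NDUFS7, which carries the iron-sulfur cluster nearest to ubiquinone, had 42.4, 41.8, 39.5 and 41.8 CPM in antimycin and 39.3, 41.5, 33.0 and 37.6 CPM in vehicle in dMTS-DELE1 cells, where the groups overlapped. It had 64.9, 59.7, 60.3 and 62.0 CPM in antimycin and 56.3, 58.5, 54.9 and 58.0 CPM in vehicle in WT-vector cells, where they did not. Its log2 fold changes were 0.13 in dMTS-DELE1 cells, 0.16 in F137S cells, 0.18 in the labelled libraries, 0.15 in KO-vector cells and 0.12 in WT-vector cells, each called. The call in dMTS-DELE1 cells was lost when vehicle replicate 3 or 4 or antimycin replicate 1, 2 or 4 was left out, down to a log2 value of 0.070 (edgeR adjusted p = 0.278) without vehicle replicate 3, and that in WT-vector cells without vehicle replicate 3 (edgeR adjusted p = 0.051) or antimycin replicate 1 (edgeR adjusted p = 0.0609). NDUFV1, which binds NADH and the flavin, rose in the 4 lines other than dMTS-DELE1 cells, by 0.090 to 0.14 on the log2 scale. In dMTS-DELE1 cells its value was 0.05 (edgeR adjusted p = 0.104). NDUFS1, NDUFS3 and NDUFV2 were called in no line.

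The accessory subunits of the distal membrane arm were called higher in part in every line and lower in none. In WT-vector cells the share that rose was near that of all tested genes. Of the 11, 3 rose in dMTS-DELE1 cells, 8 in F137S cells, 7 in the labelled libraries, 8 in KO-vector cells and 3 in WT-vector cells, where 17.6%, 26.3%, 25.9%, 26.4% and 25.5% of all tested genes rose. NDUFB5 rose in all 5 lines, by 0.091 in dMTS-DELE1 cells, 0.18 in F137S cells, 0.13 in the labelled libraries, 0.13 in KO-vector cells and 0.11 in WT-vector cells. The NDUFB5 call in WT-vector cells was lost without vehicle replicate 2 (edgeR adjusted p = 0.0512), and that in dMTS-DELE1 cells when vehicle replicate 1 or 2 or antimycin replicate 2 or 3 was left out, with the highest edgeR adjusted p, 0.205, without antimycin replicate 3. NDUFA2, a matrix-arm subunit with a thioredoxin-like fold, rose in all 5 lines by 0.13 to 0.17. In dMTS-DELE1 cells its libraries had 37.8, 36.4, 33.8 and 34.9 CPM in antimycin and 32.5, 33.4, 30.2 and 34.2 CPM in vehicle, which overlapped, and the call was lost without vehicle replicate 3, antimycin replicate 1 or antimycin replicate 2 (edgeR adjusted p = 0.0899, 0.0729 and 0.0552). NDUFC2, at the root of the membrane arm, fell in dMTS-DELE1 cells, with 13.8, 16.7, 13.7 and 13.9 CPM in antimycin and 16.9, 17.5, 18.6 and 19.5 CPM in vehicle. Its highest antimycin library lay just under the lowest vehicle library, and the log2 fold change was -0.32 (edgeR adjusted p = 3.63e-05). It also fell in WT-vector cells (-0.24) and in the labelled libraries (-0.17, edgeR adjusted p = 0.0254), where the call was lost without vehicle replicate 2 or 3 or antimycin replicate 2, 3 or 4 (edgeR adjusted p = 0.164, 0.121, 0.0914, 0.0593 and 0.147).

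Several regulators of nuclear respiratory genes fell with antimycin. Of 9 such genes, 4 fell and 0 rose in dMTS-DELE1 cells, 6 fell and 1 rose in F137S cells, 6 fell and 1 rose in the labelled libraries, 7 fell and 0 rose in KO-vector cells, and 6 fell and 0 rose in WT-vector cells, where 17.3%, 24.9%, 26.4%, 24.7% and 26.4% of all tested genes fell in these lines. PPARGC1B, a coactivator of mitochondrial genes, had log2 fold changes of -0.46 in dMTS-DELE1 cells, -0.67 in F137S cells, -0.72 in the labelled libraries, -0.69 in KO-vector cells and -0.63 in WT-vector cells, all called. The transcription factor NRF1 and TFAM, which packages and transcribes mitochondrial DNA, also fell in all 5 lines. For NRF1 the fall in the labelled libraries (-0.14) was not called without vehicle replicate 2 or 3 or antimycin replicate 2 or 3 (edgeR adjusted p = 0.0717, 0.0728, 0.0628 and 0.116). Of 11 assembly factors with other symbols, 3 rose and 2 fell in dMTS-DELE1 cells, 3 rose and 3 fell in F137S cells, 1 rose and 4 fell in the labelled libraries, 2 rose and 4 fell in KO-vector cells, and 2 rose and 3 fell in WT-vector cells, with medians from -0.049 to -0.023. Among them ECSIT, a partner of NDUFAF1, rose in all 5 lines, by 0.19 in dMTS-DELE1 cells, 0.35 in F137S cells, 0.24 in the labelled libraries, 0.13 in KO-vector cells and 0.29 in WT-vector cells. The ECSIT call in KO-vector cells was lost without vehicle replicate 1 or 4 or antimycin replicate 1 (edgeR adjusted p = 0.0927, 0.143 and 0.0859). Of 77 mitochondrial ribosomal protein genes, between 21 and 32 fell in each line and 7 to 13 rose, beside 17.3% to 26.4% of all tested genes that fell and 17.6% to 26.4% that rose.

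Whether the lines differed in their response to antimycin was tested as a difference of log2 fold changes. No member was called in any of the 5 differences. Under edgeR 0 members were called for dMTS-DELE1 minus F137S cells (11.9% of all tested genes were called), F137S minus KO-vector cells (0.0%), the labelled libraries minus KO-vector cells (1.65%), the labelled libraries minus WT-vector cells (0.0%) and KO-vector minus WT-vector cells (1.57%). At an unadjusted p < 0.05, edgeR gave 8 members for dMTS-DELE1 minus F137S cells (24.5% of all tested genes), 1 for F137S minus KO-vector cells (4.25%), 2 for the labelled libraries minus KO-vector cells (11.7%), 0 for the labelled libraries minus WT-vector cells (4.52%) and 7 for KO-vector minus WT-vector cells (11.6%). The DESeq2 Wald test called 1 member, NDUFA6, in the first of these and 0 in the others. NDUFAF5 fell less in dMTS-DELE1 cells than in F137S cells by 0.17 ± 0.080 on the log2 scale, NDUFAF4 by 0.14 ± 0.061, and NDUFB10 responded lower by -0.14 ± 0.062, none of which passed (edgeR adjusted p = 0.18, 0.144 and 0.135). For KO-vector minus WT-vector cells the NDUFAF5 difference was 0.01 ± 0.079 (edgeR adjusted p = 0.978). Leaving out NDUFA3 and NDUFA6, the members' differences of response ran from -0.19 to 0.17 for dMTS-DELE1 minus F137S cells and from -0.069 to 0.23 for KO-vector minus WT-vector cells. Of the 9 regulators 2 were called in dMTS-DELE1 minus F137S cells, PPARGC1B (0.21, edgeR adjusted p = 0.00241) and GABPA, a subunit of an ETS-family factor (0.19, edgeR adjusted p = 0.0036). PPARGC1B fell less in dMTS-DELE1 cells, whereas GABPA fell in F137S cells (-0.19) and was not called in dMTS-DELE1 cells (0.0, edgeR adjusted p = 0.999).

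In KO-vector cells against WT-vector cells, 4 of the 5 members on the short arm of chromosome 19 were the lowest of the set. In antimycin 9 members were higher and 15 lower in KO-vector cells (48.0% of all tested genes were called, 23.5% higher and 24.5% lower), or 8 and 15 without NDUFA3 and NDUFA6. In vehicle 5 were higher and 19 lower (48.3%), with 22.7% of all tested genes higher and 25.6% lower. The median log2 fold change of the members was -0.01 in antimycin and -0.08 in vehicle, where the medians over all tested genes were -0.0014 and -0.0085. Tested genes with transcripts of at most 1000 bases, as above, had medians of -0.016 in antimycin and -0.040 in vehicle. Longer ones had -0.0014 and -0.0023.

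NDUFA7, a matrix-arm subunit, had 21.7, 24.9, 23.0 and 23.0 CPM in KO-vector cells and 36.8, 39.4, 38.1 and 35.8 CPM in WT-vector cells in vehicle. NDUFB7, a twin-cysteine protein on the intermembrane side, had 27.9, 29.7, 30.4 and 29.6 CPM in KO-vector cells and 43.7, 47.7, 42.8 and 46.6 CPM in WT-vector cells. For both genes all KO-vector libraries lay far below all WT-vector libraries. NDUFA13, also known as GRIM-19, had 58.4, 55.1, 54.1 and 55.4 CPM in KO-vector cells and 83.9, 82.2, 78.2 and 86.1 CPM in WT-vector cells, and NDUFS7 had 40.0, 39.4, 41.8 and 39.9 CPM in KO-vector cells and 56.3, 58.5, 54.9 and 58.0 CPM in WT-vector cells. These too were separate. The log2 fold changes in vehicle were -0.70 ± 0.057 for NDUFA7 (edgeR adjusted p = 1.48e-17, 1.62-fold lower), -0.62 ± 0.054 for NDUFB7 (2.94e-16), -0.57 ± 0.050 for NDUFA13 (6.89e-13) and -0.50 ± 0.046 for NDUFS7 (2.78e-15). In antimycin they were -0.47 for NDUFA7, -0.57 for NDUFB7, -0.42 for NDUFA13 and -0.46 for NDUFS7, all called. NDUFA11, the remaining member on that arm, had 78.4, 81.3, 85.0 and 78.8 CPM in KO-vector cells and 82.6, 84.9, 81.1 and 85.4 CPM in WT-vector cells in vehicle, which overlapped (-0.05 ± 0.040, edgeR adjusted p = 0.356), and its value in antimycin was 0.08 (edgeR adjusted p = 0.0996).

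These 5 genes lie at chr19:1383907-1395584 (NDUFS7), chr19:5891229-5903790 (NDUFA11), chr19:8308595-8321375 (NDUFA7), chr19:14566078-14572066 (NDUFB7) and chr19:19516225-19528198 (NDUFA13) in GRCh38.p14. Most tested genes of the arm were lower in KO-vector cells. Of 489 tested genes on it 74.0% were lower in vehicle, with a median log2 fold change of -0.50, and 75.9% in antimycin, with the same median of -0.50. Of the 15983 tested genes elsewhere 24.3% were lower and 23.4% higher in vehicle, with a median of -0.0011, and the 617 on the long arm of chromosome 19 had a median of 0.01. Within 1 Mb of NDUFA7, 29 of 37 tested neighbours were lower and their median was -0.57. NDUFB7 had 27 of 36 lower (median -0.52), NDUFA13 32 of 41 (-0.51), NDUFS7 51 of 74 (-0.42) and NDUFA11 26 of 38 (-0.54). NDUFA11 was near 0 among neighbours with that median. Whether the arm had another copy number in these cells was not tested. ECSIT, on the same arm and no member, had a log2 fold change of -0.52 in vehicle.

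**Figure D4:**
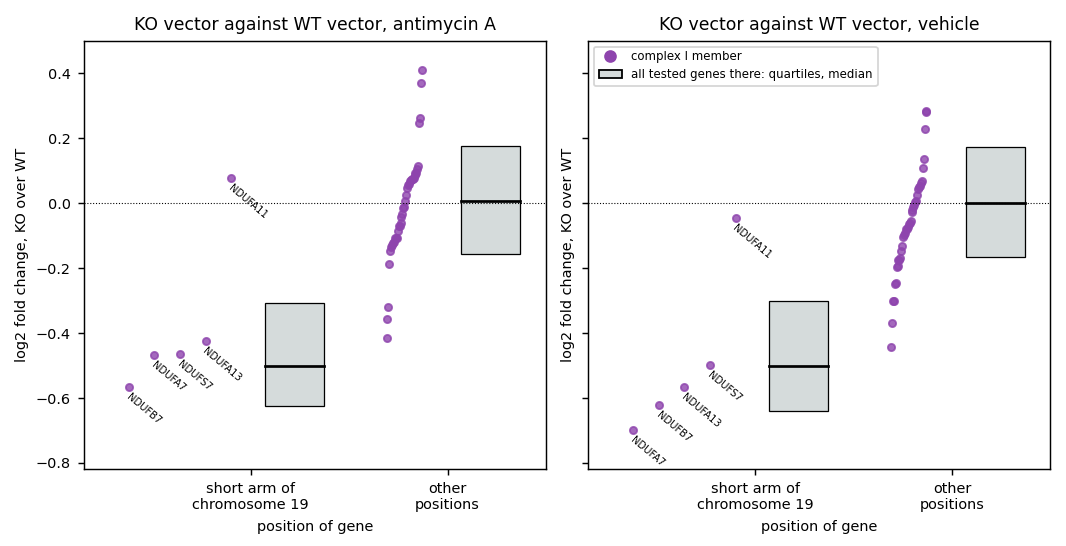
Log2 fold change of members (points), KO vector over WT vector, in antimycin (left) and vehicle (right), for the 5 members on the short arm of chromosome 19 and those elsewhere, beside boxes with the quartiles and median of all tested genes there. Of the short-arm members 4 lie within or near the box centred at -0.50 and NDUFA11 lies near 0. NDUFA3 and NDUFA6 are left out.

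The start regions of 2 of these genes are shown as examples of the NRF1 and the ETS motif. In the windows of 300 bases the YY1 motif was in NDUFS7 and NDUFA7. The ETS motif was about as frequent in members (5.13%) as in all symbols (4.95%). Both start regions are drawn as above (RefSeq, GRCh38.p14). Capitals mark the NRF1 motif on its reverse strand in NDUFS7 and the ETS motif CCGGAAGT in NDUFA13.
NDUFS7: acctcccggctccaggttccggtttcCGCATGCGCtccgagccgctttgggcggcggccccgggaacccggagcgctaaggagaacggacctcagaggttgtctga
NDUFA13: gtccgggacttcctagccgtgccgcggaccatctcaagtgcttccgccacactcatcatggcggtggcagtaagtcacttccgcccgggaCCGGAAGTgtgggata
The NDUFS7 stretch lies at chr19:1383807-1383912 and the NDUFA13 stretch at chr19:19516125-19516230, both on the plus strand. Some of these genes share exonic bases with others, and the sources used here do not say whether the counting used strand. The shared part was 49.1% of exonic bases for NDUFS7, 33.5% for NDUFA7, 20.98% for NDUFA13 and 12.1% for NDUFA11, and 0 for NDUFB7, NDUFB10, NDUFAF5 and NDUFAF4. The values of NDUFS7, NDUFA7, NDUFA13 and NDUFA11 may therefore hold reads of neighbours.

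Off this arm 15 of the 41 members were lower and 5 higher in KO-vector cells in vehicle (median -0.07). In antimycin 11 were lower and 9 higher (median 0.0064). Of the 15983 tested genes elsewhere 24.3% were lower and 23.4% higher in vehicle, and 23.1% were lower and 24.3% higher in antimycin. The members' antimycin counts lay near these shares. NDUFB10, a twin-cysteine subunit on chromosome 16, was lower by -0.42 in antimycin and -0.44 ± 0.043 in vehicle (edgeR adjusted p = 1.56e-10), among 83 tested neighbours of which 42 were lower (median -0.19). NDUFAF5, on chromosome 20, was lower by -0.36 in antimycin and -0.37 ± 0.055 in vehicle (edgeR adjusted p = 1.98e-08). Of its 5 tested neighbours 3 were lower and 1 higher in vehicle, with a median of -0.28. NDUFAF2, on chromosome 5, had 26.8, 23.7, 28.1 and 25.7 CPM in KO-vector cells and 32.4, 31.4, 30.8 and 34.0 CPM in WT-vector cells in vehicle, without overlap (-0.30). Leaving out NDUFA3 and NDUFA6, the largest rises were of NDUFAF6 and NDUFC1. NDUFAF6, an assembly factor on chromosome 8, had 49.97, 50.5, 48.0 and 47.7 CPM in KO-vector cells and 41.1, 40.6, 39.3 and 40.2 CPM in WT-vector cells in vehicle. All KO-vector libraries were higher, by 0.28 ± 0.041 (edgeR adjusted p = 9.51e-09), and by 0.41 in antimycin. Of its 13 tested neighbours 9 were also higher, with a median of 0.35. NDUFC1, a short membrane-arm subunit on chromosome 4, was higher by 0.37 in antimycin and 0.28 ± 0.047 in vehicle (edgeR adjusted p = 4.9e-07), and NDUFB5, on chromosome 3, by 0.25 in antimycin and 0.23 ± 0.035 in vehicle (edgeR adjusted p = 4.79e-08). For NDUFB5 8 of 11 neighbours were higher (median 0.19), and for NDUFC1 4 of 10 (median 0.11).

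The libraries labelled KO plus SLC25A12-WT differed from KO-vector cells in many members, and no member was called against WT-vector cells. Against KO-vector cells 13 members were higher and 9 lower in antimycin (48.2% of all tested genes were called, 24.7% higher and 23.5% lower), and 18 were higher and 6 lower in vehicle (47.8%, 25.3% higher and 22.6% lower). This comparison shares its KO-vector libraries with the one above. In vehicle NDUFB7 was higher by 0.62, NDUFA7 by 0.61, NDUFS7 by 0.52, NDUFA13 by 0.50 and NDUFB10 by 0.42, and NDUFAF6 was lower by -0.32. Against WT-vector cells edgeR called 0 members in antimycin (0.00597% of all tested genes) and 0 in vehicle (0.0%), with 0 members in antimycin (4.81% of all tested genes) and 1 in vehicle (4.65%) at an unadjusted p < 0.05, and DESeq2 called 0 in both. Since SLC25A12 was at the wild-type level in these libraries, a return of complex I transcripts by the added cDNA cannot be read from them.

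No member was called between F137S cells and KO-vector cells. Under edgeR 0 members were called in antimycin (0.114% of all tested genes) and 0 in vehicle (0.0836%), 5 in antimycin (6.32%) and 3 in vehicle (6.06%) passed an unadjusted p < 0.05, and DESeq2 called 0 in both. Those that passed the unadjusted p were all lower in F137S cells, with NDUFA3 among them in antimycin. The 41 members off the short arm of chromosome 19 had a median log2 fold change of -0.038 in antimycin and -0.039 in vehicle. All tested genes elsewhere had -0.0027 and 0.0003. The 5 members on the arm had -0.092 and -0.034, beside -0.0048 and -0.012 for all tested genes there. NDUFA7, as 1 example, had 22.8, 24.6, 20.2 and 23.0 CPM in F137S cells in vehicle. KO-vector cells had 21.7, 24.9, 23.0 and 23.0 CPM of NDUFA7.

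Complex I transcripts were lower in dMTS-DELE1 cells than in F137S cells, in most members and by small amounts. In antimycin 3 members were higher and 34 lower (54.3% of all tested genes were called, 25.5% higher and 28.8% lower), and in vehicle 2 were higher and 30 lower (41.8%, 17.7% higher and 24.1% lower). Without NDUFA3 and NDUFA6 the counts were 2 higher and 34 lower in antimycin and 2 higher and 29 lower in vehicle. The members' median log2 fold change was -0.19 in antimycin and -0.14 in vehicle, beside -0.02 over all tested genes in both. Besides dMTS-DELE1, these lines differed in SLC25A12 itself, at 3693 to 3745 CPM in dMTS-DELE1 cells and 1826 to 1867 CPM in F137S cells in vehicle, and the share of either in the result was not tested.

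Each role group held members that were lower in dMTS-DELE1 cells. Of the 11 distal membrane subunits 11 were lower in antimycin and 9 in vehicle, of the 9 proximal ones 8 and 7, and of the 7 core subunits 5 and 5. Of the 10 matrix accessory subunits 6 were lower and 2 higher in antimycin, and 4 lower and 1 higher in vehicle. Of the 8 assembly factors 3 were lower and 1 higher in antimycin, and 4 lower and 1 higher in vehicle. Among those lower in vehicle, NDUFAF1 and NDUFAF5 lost their calls with the compared groups alone (edgeR adjusted p = 0.0813 and 0.0786). Each also lost its call without some single libraries, with edgeR adjusted p up to 0.0993 for NDUFAF1 and 0.17 for NDUFAF5. Over all tested genes 28.8% were lower in antimycin and 24.1% in vehicle. The 3 of 8 assembly factors in antimycin were not far above that share.

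NDUFA2 had 37.8, 36.4, 33.8 and 34.9 CPM in dMTS-DELE1 cells and 45.1, 45.2, 43.9 and 48.1 CPM in F137S cells in antimycin, and 32.5, 33.4, 30.2 and 34.2 CPM in dMTS-DELE1 cells and 39.5, 42.8, 39.5 and 41.3 CPM in F137S cells in vehicle. The assembly factor NDUFAF3 had 70.4, 70.1, 61.5 and 70.3 CPM in dMTS-DELE1 cells and 88.0, 85.8, 84.1 and 95.9 CPM in F137S cells in antimycin, and 62.6, 70.4, 61.7 and 65.6 CPM in dMTS-DELE1 cells and 83.6, 82.9, 72.5 and 80.8 CPM in F137S cells in vehicle. In both genes and both treatments every dMTS-DELE1 library was below every F137S library. NDUFB10 had 128, 123, 121 and 121 CPM in dMTS-DELE1 cells and 154, 151, 144 and 177 CPM in F137S cells in antimycin, again without overlap. NDUFB1, a short distal subunit, had 15.9, 13.0, 11.8 and 15.6 CPM in dMTS-DELE1 cells and 18.3, 19.5, 16.6 and 19.9 CPM in F137S cells in antimycin. Its groups were close and did not overlap.

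The log2 fold changes in antimycin were -0.40 ± 0.082 for NDUFB1 (edgeR adjusted p = 4.35e-05), -0.38 ± 0.050 for NDUFAF3 (5.89e-08), -0.35 ± 0.043 for NDUFA2 (5.15e-11), -0.35 ± 0.044 for NDUFB10 (3.46e-08) and -0.31 ± 0.041 for NDUFS5, a twin-cysteine subunit (1.25e-08). In vehicle they were -0.36 ± 0.083 for NDUFB1 (edgeR adjusted p = 3.94e-04), -0.30 ± 0.051 for NDUFAF3 (9.55e-06), -0.32 ± 0.043 for NDUFA2 (2.09e-09), -0.20 ± 0.044 for NDUFB10 (3.61e-04) and -0.28 ± 0.041 for NDUFS5 (3.31e-07). The falls were 1.24-fold to 1.32-fold in antimycin for these 5 genes. NDUFAF3 shares 21.7% of its exonic bases with DALRD3.

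Few members went the other way. NDUFV3, a matrix-arm subunit beside the flavin site, had 92.7, 89.5, 88.9 and 90.8 CPM in dMTS-DELE1 cells and 85.3, 83.2, 85.4 and 86.4 CPM in F137S cells in antimycin, and 93.8, 91.9, 88.8 and 90.4 CPM in dMTS-DELE1 cells and 87.5, 81.4, 80.5 and 86.1 CPM in F137S cells in vehicle. It was higher without overlap, by 0.09 ± 0.031 in antimycin (edgeR adjusted p = 0.0123) and 0.12 ± 0.031 in vehicle (edgeR adjusted p = 0.001). The antimycin call was lost without F137S replicate 2 (edgeR adjusted p = 0.0517) or dMTS-DELE1 replicate 1 (edgeR adjusted p = 0.055). NDUFAF4 was higher in antimycin (0.13, edgeR adjusted p = 0.0117), but not without F137S replicate 3 (0.079, edgeR adjusted p = 0.137). NDUFAF6 was higher in vehicle (0.10, edgeR adjusted p = 0.0333), but not without F137S replicate 1 (edgeR adjusted p = 0.134) or dMTS-DELE1 replicate 3 (edgeR adjusted p = 0.117). NDUFS1, NDUFS7, NDUFA9, NDUFS4, NDUFAF2 and NDUFAF7 were called in neither treatment.

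**Figure D5:**
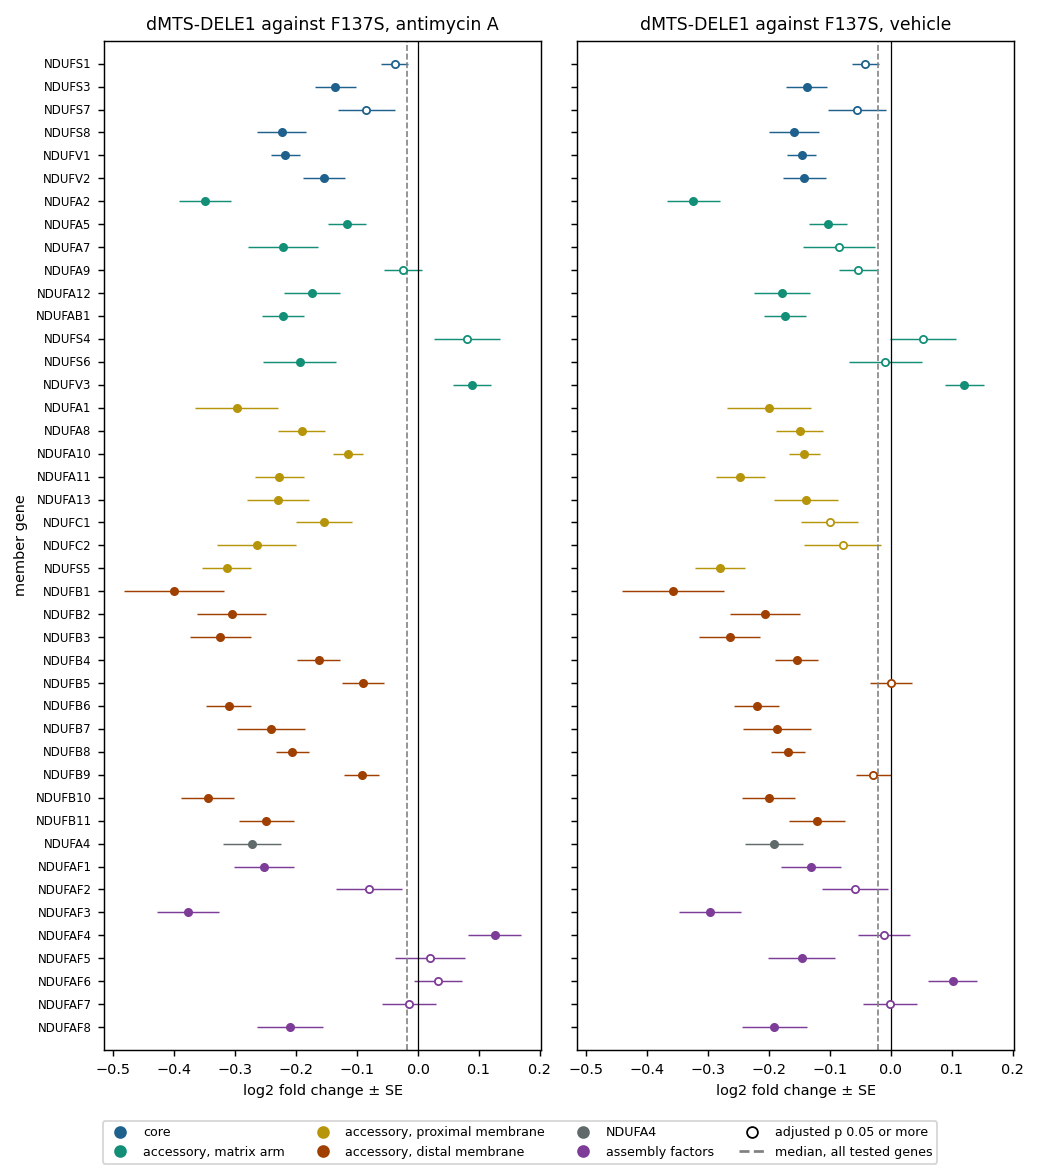
Log2 fold change of the members reported by name (points, with bars of 1 SE), dMTS-DELE1 over F137S, in antimycin (left) and vehicle (right), with a dashed line at the median of all tested genes. Most members lie left of the line at -0.02, the lowest being NDUFB1 at -0.40 in antimycin and -0.36 in vehicle. NDUFA3 and NDUFA6 are left out.

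Other respiratory and mitochondrial genes were lower in dMTS-DELE1 cells as well. Of the 9 nuclear complex III genes 9 were lower in antimycin and 9 in vehicle, of the 4 complex II genes 4 and 4, and of the 77 mitochondrial ribosomal protein genes 47 and 46, with 6 of the 77 higher in antimycin and 2 in vehicle. Over all tested genes 28.8% were lower in antimycin and 24.1% in vehicle. Short transcripts tended the same way. The 3196 tested genes whose protein-coding transcripts (GENCODE v29) have a median length of at most 1000 bases had a median log2 fold change of -0.06 in antimycin and -0.05 in vehicle, and the 10895 longer ones -0.0050 and -0.02. Of the 46 members 34 were short by this measure, and the part of transcript length in the members' fall was not tested.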

How the data were processed

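Poly(A) RNA was read as paired reads, per the labels' protocols, and the deposited table holds raw counts per gene symbol, without normalization. Per the submitters' processing notes the authors used HISAT2 2.1.0 and featureCounts 2.0.6 with hg38. The sources used here give no settings, annotation or strandedness.

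The counts of all 40 libraries were filtered with filterByExpr (16739 of 28278 symbols kept), scaled by TMM and fitted with edgeR 4.0.16 (limma 3.58.1, R 4.3.3), robust quasi-likelihood, with 1 coefficient per group and no pairing. Contrasts gave 20 comparisons, with Benjamini-Hochberg adjustment over all tested genes and calls at an adjusted p < 0.05. CPM were TMM-scaled, and log2 CPM added a prior count of 2. The procedure was tested on simulated data.

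Members and gene lists were chosen with earlier results of these data known. Named members are, per comparison, those called without overlap, the 4 largest each way, the core subunits, assembly factors and NDUFA4. Others, such as NDUFA3, NDUFA6, NDUFA11, NDUFV3 and the genes called in all lines, were chosen after their values were seen. Values of 1 member are not reported here, though counts of members include it. Alternatives were DESeq2 1.42.0 size factors and its Wald test, no filter, the compared groups alone, a replicate block, counts halved, a prior count of 0.5, a fit without the labelled libraries, members off the short arm of chromosome 19, and each library left out. Leaving out NDUFA3 and NDUFA6, and transcript length, were added after seeing the data. Positions come from RefSeq GRCh38.p14, for 98.4% of tested genes. Read totals are alike, so depth limits mainly the low members, and PCR reads without molecular identifiers are not independent molecules.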

Additional observations from a re-analysis of the deposited data

Results flagged for a closer look

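A library far from the other 3 of its group, by a gap above Dixon's critical value for 4 samples, was found in 13 of 220 groups (5.91%), where chance gives about 5%. These 220 groups do not cover all members. All values here are CPM. Of the 13, 6 belong to NDUFA3 and NDUFA6. NDUFA3 reached 4.53 in 1 F137S library in vehicle (the others 0.251 to 0.73) and 6.20 in 1 KO-vector library in antimycin (0.186 to 0.464), and was low at 0.186 in 1 F137S library in antimycin (0.3704 to 0.383). NDUFA6 reached 32.3 in 1 dMTS-DELE1 library in antimycin (2.37 to 3.74) and 3.94 in 1 library labelled KO plus SLC25A12-WT in antimycin (2.00 to 2.20), and was low at 1.83 in 1 dMTS-DELE1 library in vehicle (2.31 to 2.37). The calls that rest on the 3 highest libraries are given with and without them in the report.

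The other 7 were small in absolute size. In antimycin the libraries labelled KO plus SLC25A12-WT had 1 high value of NDUFA7 (41.8, others 38.6 to 39.2), KO-vector cells 1 high value of NDUFAF1 (28.5, others 27.0 to 27.1) and 1 low value of NDUFB7 (29.9, others 32.3 to 32.5). In dMTS-DELE1 cells in antimycin NDUFC2 was high in 1 library (16.7, others 13.7 to 13.9) and NDUFAF3 low in 1 (61.5, others 70.1 to 70.4). In vehicle the labelled libraries had 1 high value of NDUFAF2 (32.6, others 30.4 to 30.8) and WT-vector cells 1 of NDUFAF3 (82.6, others 79.6 to 79.9).

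The response to antimycin differed between dMTS-DELE1 and F137S cells, by the test of the difference itself, for 2 regulators, PPARGC1B (log2 difference 0.21) and GABPA (0.19).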

How the results depend on the processing

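No named result changed direction under any alternative run, and of the recomputed values of called, named genes 2681 kept their call and 163 lost it. Counts of called members stayed within 1.5 times, with these exceptions. The dMTS-DELE1 response gave 6 members with the compared groups alone, instead of 10. With single libraries left out it ranged from 4 to 11, with 5 without vehicle replicate 3, 5 without antimycin replicate 1 and 4 without antimycin replicate 2. The response in libraries labelled KO plus SLC25A12-WT ranged from 12 to 23, with 12 without vehicle replicate 1. For dMTS-DELE1 minus F137S the DESeq2 Wald test gave 1 member (NDUFA6) instead of 0, and single libraries left out gave 0 to 2, with 2, NDUFB6 and NDUFB10, without F137S antimycin replicate 3. The cause was not tested. With a replicate block 11 members were called for the dMTS-DELE1 response, 24 for the KO-vector response and 17 for the WT-vector response, and other counts moved by less than 1.5 times. For each library the log2 CPM were taken as deviations from the mean of its group. Over genes, these deviations correlated between -0.0392 and 0.0510 for same-numbered libraries, so the numbers were not taken as pairs. Depth limits NDUFA3 and NDUFA6 most, as the members with the fewest counts. The cause of their jumps in single libraries was not tested.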
